A study of Mus musculus with 4 samples.

Results

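Forced expression of p63 was compared with a GFP control in unstressed fibroblasts that lack the apoptosis effectors BAX and BAK. The comparison used 2 of the 4 arrays of the series, the mock-treated p63 sample and the mock-treated GFP sample, chosen by their labels. It covered 10698 of 19938 named genes, those that reached a brightness filter on at least 1 of the 4 arrays. The remaining genes lay below the filter on every array and are given only where they are named.

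All groups were mouse embryonic fibroblasts (MEFs) of C57BL/6 background from an embryo at E13.5, doubly deficient for BAX and BAK and transformed with SV40. Large T antigen of SV40 binds p53 and the retinoblastoma protein, so the controls carry that background too. The mock GFP group carried a retrovirus for GFP, and the mock p63 group a retrovirus for p63. Both were mock-treated for 6 h and each was measured on 1 Affymetrix Mouse Gene 1.0 ST array. The same lines treated for 6 h with etoposide, a topoisomerase II poison, form an etoposide pair that shares no array with the mock pair and is given beside it. The labels do not say whether p63 was of mouse or human sequence, which isoform it was, whether a line was 1 clone or which promoter drove the insert.

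p63, encoded by Trp63, is a transcription factor of the p53 family. In stratified epithelia such as the epidermis it is the master regulator of the basal layer, where it maintains the keratins, desmosomes and hemidesmosomes that hold keratinocytes to each other and to the basement membrane. Fibroblasts normally lack it. Type I interferon signalling, the other programme described here, runs from nucleic acid sensors through secreted interferon and its receptor to transcription factors, which bind interferon-stimulated response elements in the promoters of antiviral genes.

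Values are deposited RMA signals on the log2 scale, where a difference of 1 is 2-fold. A gene was called where the p63 reading lay at least 1 above or below the GFP reading. There was no replicate in any group, so the differences carry no error, no test was made, and nothing here separates p63 from any other difference between the 2 lines or arrays. The filter, 5.87, was the median of all readings. Where 1 of 2 readings lay below it, that reading was raised to the filter and the fold is given as "at least".

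The mock p63 array stood apart from the other arrays. Its readings had an SD of 2.28 over all probe sets, against 2.37 to 2.39 on the others, and the median of its kept genes was 7.48, against 7.60 to 7.69. It gave the lowest of the 4 readings for 40.4% of genes kept and the highest for 19.4%. It lay at least 1 from each other array, with those within 0.5 of one another, for 78 genes, 20 of them higher (0.187% of genes kept) and 58 lower (0.542%). The p63 minus GFP differences had an SD of 0.56 in the mock pair and 0.36 in the etoposide pair, with medians of -0.14 and 0.02. In the mock pair the median difference was 0.10 in the dimmest of 10 equal bins of genes by brightness and between -0.18 and -0.22 in the brightest 7 bins. The part of the array's own offset in the results was not tested. The counts of each main group are therefore given beside those of the etoposide pair, which does not use this array.

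In mock-treated cells 661 genes, 6.18% of those kept, differed by at least 2-fold. Readings were higher with p63 for 259 genes (2.42%) and lower for 402 (3.76%). The etoposide pair gave 1.38% higher and 0.514% lower. The split moved with the scaling of the arrays. With p63 39.2% of called genes were higher as deposited, 66.9% after each array was centred on its median, 58.4% after cyclic loess and 55.6% after quantile normalization. Centring moved the median difference of all genes from -0.14 to 0.07. Groups of genes are therefore read against the median of all genes. Of 171 named genes called, 148 were called under every scaling. Zeb2, Loxl1, Erap1, Vcam1, Btg1, Dusp1, Dusp6, Mcm10, H1f1, Irs1, Timp3, Ern1, Polr1a, Nolc1, Mybbp1a, Heatr1, Ctsa, Npc2, Bid and Srm, described with their groups, were not.

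The largest differences belonged to recognisable groups, and the small ones mostly did not. Of the 15 genes higher by at least 3 (8-fold), 9 were on the lists of epithelial genes. Those lists held 12 of the 46 genes higher by at least 2, and 19 of the 259 called. Trp63, the gene of the protein that the retrovirus was made to express, is in each of these counts. Of the 19 genes lower by at least 3, 16 were on the lists of interferon-stimulated genes, which also held 34 of the 48 lower by at least 2 and 46 of the 402 called. Among all genes kept, 0.402% were on the epithelial lists and 0.654% on the interferon lists. At the threshold itself, the genes nearest to it differed by 1.001 and 0.9962 among the higher and by 1.00 and 0.9985 in size among the lower.

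**Figure D1:**
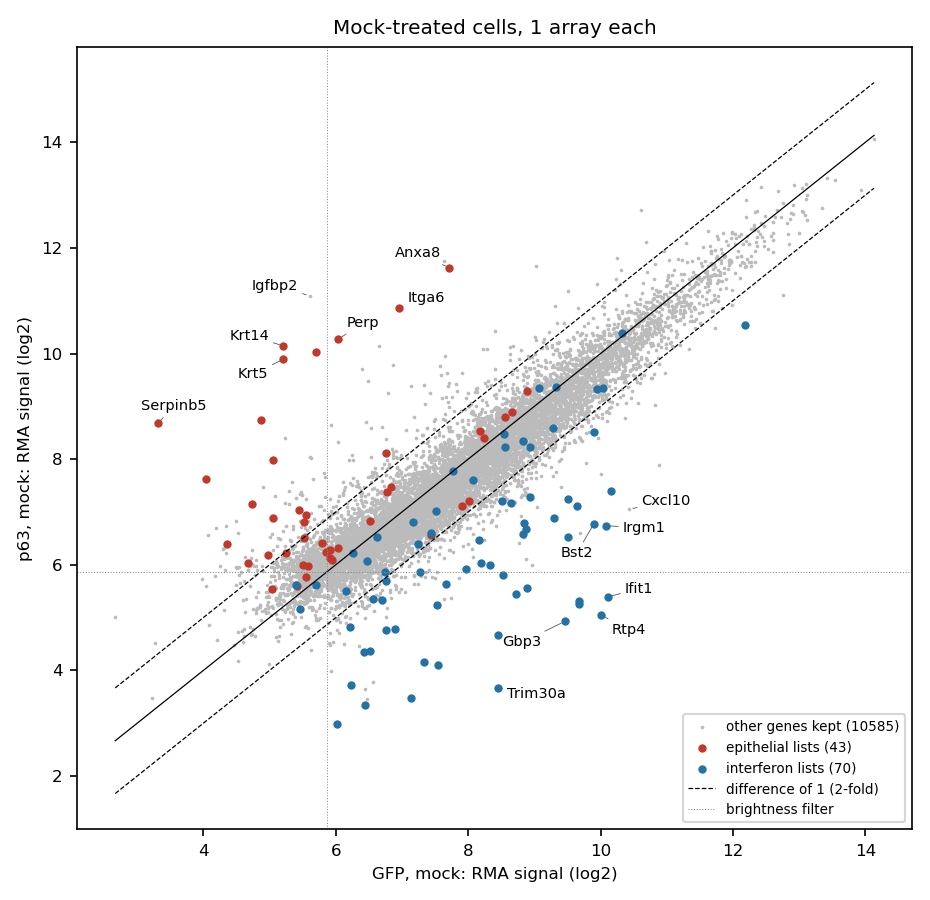
RMA signal (log2) of each gene kept in mock-treated p63 cells (vertical axis) against mock-treated GFP cells (horizontal axis), 1 array each. Points are genes, the solid line marks equal readings, the dashed lines a difference of 1 and the dotted lines the brightness filter of 5.87. Epithelial genes lie above the upper dashed line at the left, many of them below the filter in GFP cells, and interferon genes below the lower dashed line at the right, led by Trim30a, Rtp4, Ifit1 and Gbp3.

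Trp63 itself checked the labels. Its probe set read 4.87 and 5.59 on the mock and etoposide GFP arrays and 8.75 and 9.29 on the p63 arrays. Both GFP readings lay below the filter and both p63 readings above it, a difference of 3.88 in the mock pair, or at least 7.36-fold. The array sums over the exons it probes and does not tell the isoforms apart. Whether this probe set reads the insert, the gene of the cell or both is not known here. Its relative Trp73 differed by 0.92, which was not called, and Bak1, the gene of one of the missing effectors, read between 5.41 and 5.71 on all arrays, below the filter. Whether the Bak1 probes lie in the deleted part is not known here, and this reading is no check of the genotype.

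Genes of the epidermal basal layer were higher with p63, at the level of keratins and of both kinds of anchoring junction. Over 5 lists, for stratified keratins, desmosome, hemidesmosome with laminin-332, epithelial transcription factors and squamous differentiation, 91 genes were measured. Of these, 48 were below the filter on all 4 arrays and 43 were kept. Among those kept 19 were called higher and none lower, beside 2.42% higher among all genes, and 15 of the 19 remained at least 2-fold with dim readings raised, beside 1.79% of all genes. The 19 include Trp63, the gene of the protein that the retrovirus was made to express, so its call is no independent result. Without Trp63, 18 of 42 were called, and 8 of those were higher by at least 3. The median difference of the 43 was 0.64, beside -0.14 for all genes kept. Over all members without a filter it was 0.32, beside 0.03 for all genes without a filter. The filter bears on these counts, because 12 of the 43 passed it through a p63 array alone and 15 of the 19 read below it in mock GFP cells. In the etoposide pair 18 were called higher, 17 of them the same genes, with a median of 0.73. The lists were drawn up with earlier results of these data known, so their counts describe these arrays and are no independent evidence of the direction.

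Keratins are the intermediate filament proteins of epithelial cells, and Krt5 and Krt14 form the pair that marks the basal layer. Krt5 read 5.21 and 5.24 in mock and etoposide GFP cells and 9.89 and 9.72 in p63 cells, at least 16.2-fold higher in the mock pair. Krt14 read 5.21 and 5.55 with GFP and 10.15 and 10.27 with p63, at least 19.4-fold higher. Both p63 readings stood far above both GFP readings for each member of the pair and, within each line, the readings with and without etoposide were close. Keratins of hyperproliferative and wound epidermis were also higher. Krt16 read 4.03 and 5.27 with GFP and 7.62 and 8.33 with p63, at least 3.35-fold in the mock pair. Krt6a differed by 1.83 (at least 2.02-fold) in the mock and 1.64 in the etoposide pair, and Krt17 by 2.05 and 2.27. Krt15, a keratin of basal and hair follicle stem cells, differed by 1.21 and 0.90. With the dim GFP reading raised, the mock differences of Krt17 and Krt15 were 0.53 and 0.31. The keratins of differentiated suprabasal layers, Krt1 and Krt10, differed by 0.10 and 0.32 and stayed below the filter on every array. In all, 7 of 13 stratified keratins measured were kept and 6 of those were called.

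Keratins of simple, single-layered epithelia divided. Krt19, also a keratin of basal and progenitor cells, read 6.66 and 7.48 with GFP and 10.15 and 10.54 with p63, an 11.2-fold difference in the mock pair with both readings above the filter. Krt8 read 5.97 and 6.22 with GFP and 6.98 and 5.93 with p63, so it was called in the mock pair alone, at 1.01, and lay the other way, at -0.28, under etoposide. Its filament partner Krt18 was below the filter on all arrays.

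Desmosomes are the spot junctions that tie the keratin networks of neighbouring cells together. Dsp, which encodes desmoplakin, the link from the junction to keratin, read 5.71 and 6.09 with GFP and 10.02 and 9.63 with p63, at least 17.8-fold higher in mock cells. Perp, a tetraspan desmosomal protein known as a target of both p53 and p63, read 6.03 with GFP and 10.27 with p63 in mock cells, an 18.8-fold difference. In the etoposide pair GFP cells read 8.55 and the difference was 2.45. The plakophilin gene Pkp1 differed by 1.35, from 6.76 to 8.11. Of 13 desmosome genes measured, 8 were kept and these 3 were called in both pairs, while Jup (0.64), Evpl (0.39), Pkp3 (0.19), Pkp4 (0.16) and Pkp2 (-0.80) were not.

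Hemidesmosomes anchor basal cells to the basement membrane through the integrin made of Itga6 and Itgb4, whose ligand is laminin-332. Itga6 read 6.96 and 8.79 with GFP and 10.86 and 10.50 with p63, a difference of 3.90 in the mock pair with both readings above the filter. Its partner Itgb4 read 5.53 and 6.05 with GFP and 6.82 and 7.12 with p63, a difference of 1.29 that came to 0.95 with the dim reading raised. The laminin chain Lamb3 differed by 1.60 in the mock and 1.81 in the etoposide pair, and Lama3 by 1.35 and 1.13, with 0.16 left in the mock pair once the dim reading was raised. Thus all 4 genes called were subunits of the integrin or of its ligand, all were also called under etoposide, and the intracellular linkers Plec (0.23) and Dst (0.24) were not called. Col17a1, the transmembrane collagen of the same junction, lay just under the threshold at 0.99.

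The squamous list joins genes of keratinocytes from the basal to the cornified layers, and 5 of its members were called. Serpinb5 (maspin), a serpin of mammary and epidermal epithelium, read 3.32 and 4.66 with GFP and 8.69 and 9.26 with p63, at least 7.04-fold higher in mock cells. Anxa8, an annexin of stratified epithelia, read 7.72 and 8.94 with GFP and 11.62 and 11.39 with p63, a difference of 3.91 with both readings above the filter. Ly6d differed by 2.93 (at least 4.31-fold) in the mock and 3.39 in the etoposide pair, and Dmkn, a secreted epidermal protein, by 2.42 (at least 2.43-fold) and 2.03. Sfn, the stratifin of keratinocytes, differed by 1.38 (at least 2.10-fold) and 0.70. The cornified envelope genes Lor and Ivl and the transglutaminase Tgm1 were below the filter on all arrays. Of 32 squamous genes measured 22 were below it everywhere, and 5 of the 10 kept were called.

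**Figure D2:**
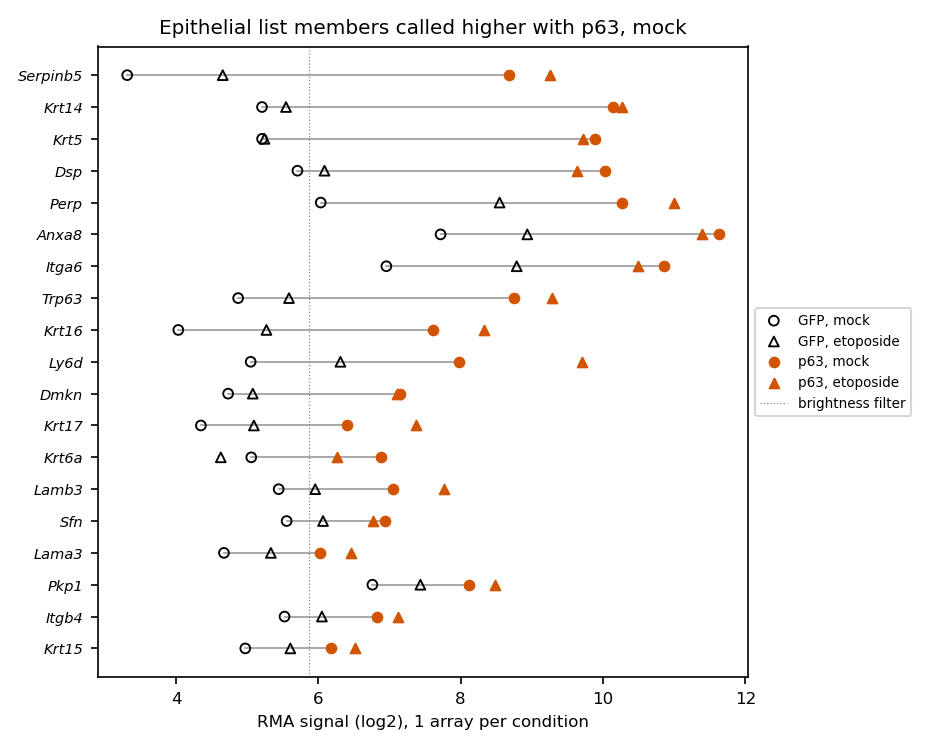
RMA signal (log2, horizontal axis) of the 19 called members of the epithelial lists on each of the 4 arrays, ordered by their mock difference; circles are mock, triangles etoposide, open symbols GFP and filled symbols p63. Grey lines join the mock readings and the dotted line is the filter of 5.87. The mock p63 reading lies to the right of both GFP readings for all 19 genes, and 15 of the mock GFP readings lie left of the filter.

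Among further epithelial genes few reached 2-fold, although most of those kept read higher with p63. Of 23 epithelial transcription factors measured 10 were kept, with 9 above 0 and a median of 0.37, and the only 1 called was Trp63. Zfp750, Sox9, Dlx3 and Grhl3, regulators of epidermal differentiation, differed by 0.63, 0.60, 0.48 and 0.22, Klf5 by -0.79, and Grhl1 and Grhl2 were below the filter throughout. Among 23 genes of epithelial adhesion and tight junctions 12 were kept, with 11 above 0 and a median of 0.37, and 1 was called, Nectin1, an immunoglobulin-like adhesion receptor of adherens junctions, which differed by 2.29 in the mock pair and 0.75 in the etoposide pair. E-cadherin (Cdh1) read 5.42 and Epcam 4.84 in mock p63 cells, both below the filter. Other genes known from epidermis were picked after their values were seen. In the mock and etoposide pairs the gap junction connexin gene Gjb2 differed by 2.25 and 2.44, Fxyd3 by 2.57 and 1.78, the basal transcription factor Bnc1 by 2.49 and 0.97 and the syndecan Sdc1 by 1.52 and 0.99. Fxyd3 and Bnc1 rested on mock GFP readings below the filter and came to 1.61 and 0.70 in the mock pair with these raised. The connexin gene Gjb6, which read 4.30 with GFP and 6.31 with p63, came to 0.44.

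The fibroblast character of the cells was still present in the readings. Col1a1 read 12.36 with GFP and 12.20 with p63, Col1a2 12.12 and 11.85, and vimentin (Vim) 12.83 and 12.27. None of these differed by 2-fold. Of 31 fibroblast markers measured 25 were kept. Fmod was called higher, at 1.47, from readings of 4.50 and 5.96 that leave 0.09 with the dim one raised, and Bgn (-1.34) and Loxl1 (-1.04) were called lower. Their differences in the etoposide pair were -0.46 and 0.06. Bgn encodes a matrix proteoglycan and Loxl1 an enzyme that cross-links elastin. The marker genes Pdgfra and Thy1 were below the filter on all arrays in both lines. Among 22 mesenchymal regulators kept 3 were called lower and 1 higher, beside 3.76% and 2.42% of all genes. None of the 22 was called in the etoposide pair. Twist2 read 8.34 and 7.86 with GFP and 6.81 and 6.89 with p63, Cdh2 (N-cadherin) differed by -1.26 in the mock and -0.53 in the etoposide pair, Zeb2 by -1.11 and -0.58, and Prrx1 by 1.27 and 0.38. For Prrx1 the mock p63 array stood apart from the other 3.

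Defining markers of other cell types were mostly undetected. Haematopoietic markers had 1 of 14 genes above the filter on any array, endothelial markers 1 of 12, melanocyte markers 1 of 6, adipocyte markers 4 of 10, neural markers 4 of 14 and skeletal muscle markers 6 of 14. Called among them were the muscle genes Acta1 (1.26) and Tnnt3 (1.07) and the neural gene Gap43 (-1.26), which differed by 0.75, 0.02 and -0.05 in the etoposide pair. With the dim mock reading raised, Tnnt3 came to 0.91 and Gap43 to -0.64. In bulk RNA, fewer cells of a type and less RNA per cell cannot be told apart, and this holds for every group described here.

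Beyond the epithelial genes, ligands of the Notch pathway and secreted modulators of growth factors were among the genes higher with p63. Notch signalling runs between neighbouring cells from membrane-bound ligands of the Jagged and Delta families to Notch receptors, and p63 is known to regulate ligand genes. Of 24 Notch pathway genes kept 4 were called higher and none lower, beside 2.42% higher among all genes, with a median of 0.19. Jag1 read 8.40 and 7.94 with GFP and 10.42 and 9.63 with p63, 4.04-fold higher in the mock pair. Jag2 differed by 1.98 (at least 3.39-fold) and Dll1 by 1.53, or 0.66 with the dim reading raised. The receptor gene Notch1 differed by 1.15. Under etoposide Jag1 (1.69) and Dll1 (1.45) were called and Jag2 (0.48) and Notch1 (0.73) were not. The target genes Hey1 (0.71) and Hes1 (0.35) were not called in mock cells.

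The largest difference of any gene kept was that of Igfbp2, of the insulin-like growth factor binding proteins. Igfbp2, a secreted protein that holds these factors in the extracellular fluid, read 5.62 and 5.95 with GFP and 11.09 and 11.21 with p63, at least 37.3-fold higher in the mock pair. Igfbp3, known as a target of p53 family members, read 5.23 and 5.53 with GFP and 8.40 and 7.89 with p63, at least 5.79-fold. Igfbp5 differed by 1.90 (at least 2.83-fold). All 3 were called in both pairs, while the adaptor Irs1 of the insulin receptors differed by -1.03 in the mock pair. These were the only calls among 14 kept genes of this axis, 3 higher beside 2.42% of all genes and 1 lower beside 3.76%. The median of the 14 was -0.02, and 0.13 to 0.19 under the other scalings. Of the fibroblast growth factor genes, the receptor gene Fgfr2, whose epithelial isoform binds Fgf7, read 6.79 and 6.23 with GFP and 9.25 and 7.82 with p63, 5.53-fold higher in mock cells. Its ligand gene Fgf7 read 9.40 with GFP and 7.48 with p63 in mock cells, 3.78-fold lower, and the etoposide pair differed by -0.94. The array does not tell the Fgfr2 isoforms apart. Of 18 genes of the fibroblast and epidermal growth factor axis kept 2 were called higher and 2 lower, beside 2.42% and 3.76% of all genes. Their median was -0.14. The others called were Fgf18 (1.34) and Ereg (-1.24), the latter with both mock readings below the filter.

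A few genes of matrix and of secreted signals were called. Among 16 further collagens kept 3 were called higher and none lower, beside 2.42% higher among all genes, with a median of 0.58 in the mock pair and 0.04 in the etoposide pair. Col18a1, of basement membranes, read 6.19 with GFP and 7.98 with p63, Col12a1 read 9.51 and 11.19, and both were called in the etoposide pair as well. Col9a3 was higher by 1.02 in the mock pair. The metalloprotease gene Adamts12 differed by 2.07 in the mock and 1.79 in the etoposide pair. Its list of 18 metalloproteases and inhibitors kept held 1 gene called higher and 3 lower, beside 2.42% and 3.76% of all genes. The median of this list was -0.01. Lower in mock p63 cells were Plaur, the urokinase receptor (-1.53), Mmp16 (-1.29) and the inhibitor Timp3 (-1.16), none of which was called under etoposide. Of 30 Wnt pathway genes kept 2 were called higher and 1 lower, beside 2.42% and 3.76% of all genes. In the mock and etoposide pairs Lgr4, a receptor for R-spondins, differed by 1.80 and 1.06, Wnt4 by 1.25 and 0.71 and the R-spondin gene Rspo2 by -1.55 and -0.91. Of 34 genes of the TGF-beta family Tgfbi differed by 1.43 and 0.90, and Ltbp1, which stores latent TGF-beta in matrix, by -1.56 and -0.66.

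Other bright genes higher in both pairs included Cbr2, a carbonyl reductase, which read 6.48 and 7.21 with GFP and 9.49 and 9.92 with p63, an 8.01-fold mock difference. Tmem45a differed by 2.72 (6.59-fold), and Cdkn1c, which encodes the CDK inhibitor p57, by 2.26 (4.79-fold). The serpin genes Serpinb8 and Serpinb10 were called in both pairs from readings that lay below the filter or close to it, and came to 0.03 and 0.00 with dim readings raised. Slc7a8, an amino acid transporter, differed by 2.49, or 0.82 with the dim reading raised. Gas6, a ligand of the TAM receptors picked after its values were seen, differed by 2.22, or 1.44 with the dim reading raised.

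Genes of the interferon response were the largest group described among the lower genes. Over the lists of sensors and signalling genes, IFIT and OAS genes, GTPases and effectors, 86 genes were measured and 70 kept. Of these 46 were called lower with p63 and none higher, beside 3.76% lower among all genes, and 36 of the 46 remained so with dim readings raised, beside 3.12% of all genes. The median difference of the 70 was -1.84, beside -0.14 for all genes kept. With dim readings raised it was -1.14, beside -0.12 for all genes, and without a filter -1.38, beside 0.03. It lay between -1.72 and -1.62 under the other scalings of the arrays. In the etoposide pair 29 were called lower, all of them among the 46, against 0.514% of all genes, and the median was -0.74. As for the epithelial lists, the direction was known when the lists were drawn up. The filter bears on these counts too, because 27 of the 70 lay below it on both p63 arrays and passed it through a GFP array alone. In 27 of the 46 the mock p63 reading lay below the filter.

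The 4 promoters printed here belong to called genes that hold the core of an interferon-stimulated response element, and show where it lies. Each line gives the 250 bases before the transcription start, 5′ to 3′ on the strand of the gene, from RefSeq (GRCm38.p6). Capitals mark GAAA, any 2 bases and GAAA again, here always on the opposite strand, so that it reads TTTC, any 2 bases and TTTC. Trim30a lies at chr7:104465194-104465443 on the minus strand, and the others on the plus strand, Ifit1 at chr19:34640639-34640888, Gbp3 at chr3:142559794-142560043 and Ifit3 at chr19:34583279-34583528.
Trim30a: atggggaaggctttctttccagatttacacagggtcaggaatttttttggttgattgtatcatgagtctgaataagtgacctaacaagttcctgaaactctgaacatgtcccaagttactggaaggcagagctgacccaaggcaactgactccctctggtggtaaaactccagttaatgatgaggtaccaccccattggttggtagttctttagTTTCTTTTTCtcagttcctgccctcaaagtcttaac
Ifit1: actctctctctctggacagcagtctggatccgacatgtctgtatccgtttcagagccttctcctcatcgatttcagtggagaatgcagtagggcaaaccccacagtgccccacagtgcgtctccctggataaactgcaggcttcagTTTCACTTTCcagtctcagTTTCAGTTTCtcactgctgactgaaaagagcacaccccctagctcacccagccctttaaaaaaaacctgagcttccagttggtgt
Gbp3: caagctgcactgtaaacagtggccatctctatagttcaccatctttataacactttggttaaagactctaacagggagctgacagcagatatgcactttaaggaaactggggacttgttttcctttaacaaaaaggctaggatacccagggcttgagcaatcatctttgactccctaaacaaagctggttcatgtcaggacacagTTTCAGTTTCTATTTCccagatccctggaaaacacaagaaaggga
Ifit3: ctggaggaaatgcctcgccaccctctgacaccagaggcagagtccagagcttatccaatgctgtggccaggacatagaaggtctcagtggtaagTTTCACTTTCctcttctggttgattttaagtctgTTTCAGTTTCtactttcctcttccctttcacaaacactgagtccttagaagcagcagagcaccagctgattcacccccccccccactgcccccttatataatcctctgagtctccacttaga

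In Trim30a the match spans positions -36 to -27 from the start, and in Gbp3 a pair of overlapping matches spans -45 to -36 and -39 to -30. Ifit1 has matches at -104 to -95 and -85 to -76, and Ifit3 at -156 to -147 and -122 to -113. The motif was searched on both strands of the 300 bases from 250 before to 50 after the start. It stood in 3.99% of 27025 genes with a listed promoter and in 3.39% of 8613 genes kept. Among interferon list members with a promoter it stood in 18 of 35 called lower (51.4%) and in 4 of 20 not called (20.0%), and among genes called lower outside these lists in 19 of 294 (6.46%). A match is a description of the letters and does not show a bound site. A simple p53 family pattern, CATG, any 6 bases and CATG, stood in 0.833% of genes with a listed promoter and in 0.279% of genes kept. None of the 8 called epithelial genes with a listed promoter held it, too few to compare with so low a share. This says only that those letters are not in that window.

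At the start of the pathway several sensors of viral RNA were called lower. Ddx58, which encodes RIG-I, read 10.16 and 8.63 with GFP and 7.40 and 7.25 with p63, 6.78-fold lower in mock cells. Ifih1, which encodes MDA5, read 8.83 and 7.75 with GFP and 6.58 and 6.42 with p63, 4.75-fold lower. Dhx58, Tlr3 and the ubiquitin ligase Trim25, which activates RIG-I, differed by -2.07, -1.07 and -2.16. Other components differed less and were not called. The adaptors Mavs and Sting1 differed by -0.36 and -0.70, Irf1, an inducible transcription factor, by -0.47, Irf3 by -0.10, the receptor chains Ifnar1 and Ifnar2 by -0.48 and -0.32, and the kinases Jak1 and Tyk2 by 0.06 and -0.08, the latter with readings near the filter. Ifnb1, the gene of interferon beta, was below the filter on all arrays, at 3.13 with GFP and 3.30 with p63. These genes were picked for comparison after their values were seen.

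Of the sensor and signalling genes, 11 of 27 kept were called lower, with a median of -0.70, and transcription factors were among them. Irf7, the interferon-inducible amplifier, read 8.72 and 8.06 with GFP and 5.45 and 5.77 with p63, at least 7.22-fold lower in mock cells. Irf9 read 9.30 and 7.92 with GFP and 6.89 and 6.23 with p63, 5.32-fold lower. Stat2 read 8.33 and 6.53 with GFP and 6.00 and 5.81 with p63, 5.04-fold lower in mock cells, with a difference of -0.72 under etoposide. Usp18, an inducible feedback inhibitor of the receptor, differed by -4.36 in the mock pair, or -3.80 with the dim reading raised, and by -3.34 in the etoposide pair.

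The IFIT proteins bind viral RNA, and the OAS enzymes make the second messenger that activates RNase L. Of 8 kept genes 7 were called. Ifit1 read 10.11 and 8.65 with GFP and 5.39 and 6.55 with p63, at least 18.9-fold lower in mock cells. Oasl2 read 9.67 and 7.70 with GFP and 5.27 and 5.47 with p63, at least 13.9-fold lower. Ifit3, Oas1a, Oas1b and Oasl1 differed by -3.44, -2.28, -2.10 and -1.40. With the dim p63 reading raised these came to -1.67, -1.65, -1.02 and -1.40. Oas1b is annotated as a transcribed pseudogene. The Ifit and Oas genes are families of close copies, and how far their probes are shared was not tested.

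All 5 GTPase genes kept were called in both pairs, and another 5 of the 10 measured were below the filter everywhere. GTPases of these families act on the vacuoles or capsids of intracellular pathogens. Gbp3 read 9.46 and 8.93 with GFP and 4.93 and 6.30 with p63, at least 12.1-fold lower in mock cells. Irgm1 read 10.08 and 8.94 with GFP and 6.74 and 7.60 with p63, 10.1-fold lower with both readings above the filter. Gbp7 differed by -2.73 (at least 6.32-fold), Mx2 by -3.65 (at least 2.40-fold) and Iigp1 by -3.09, or -0.58 with the dim reading raised. Mx2 is annotated as a transcribed pseudogene.

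Among 30 effectors kept 23 were called lower. Rtp4, an inducible chaperone, read 10.01 and 8.43 with GFP and 5.04 and 5.72 with p63, the most negative difference of any gene kept at -4.97 (at least 17.6-fold). Trim30a differed by -4.79 (at least 6.01-fold) and Xaf1 by -3.78 (at least 6.00-fold), and the ADP-ribosyltransferase Parp14 by -3.33 (at least 8.14-fold). Bst2, the tetherin that holds budding virions on the cell, read 9.90 and 9.50 with GFP and 6.78 and 6.38 with p63, so that its difference was -3.12 in both pairs. Lgals9 and Lgals3bp, a galectin and a galectin-binding protein, were 7.94-fold and 5.78-fold lower. Rnf213, a giant ubiquitin ligase outside the lists, was 7.96-fold lower in mock cells, with a difference of -0.89 under etoposide. Ddx60, Helz2, Ube2l6 and Zc3hav1, all inducible by interferon and picked after their values were seen, differed by -3.02, -2.37, -2.28 and -1.55. With the dim p63 reading raised, Ddx60 came to -0.61, under 2-fold, Helz2 to -1.87 and Ube2l6 to -1.77.

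**Figure D3:**
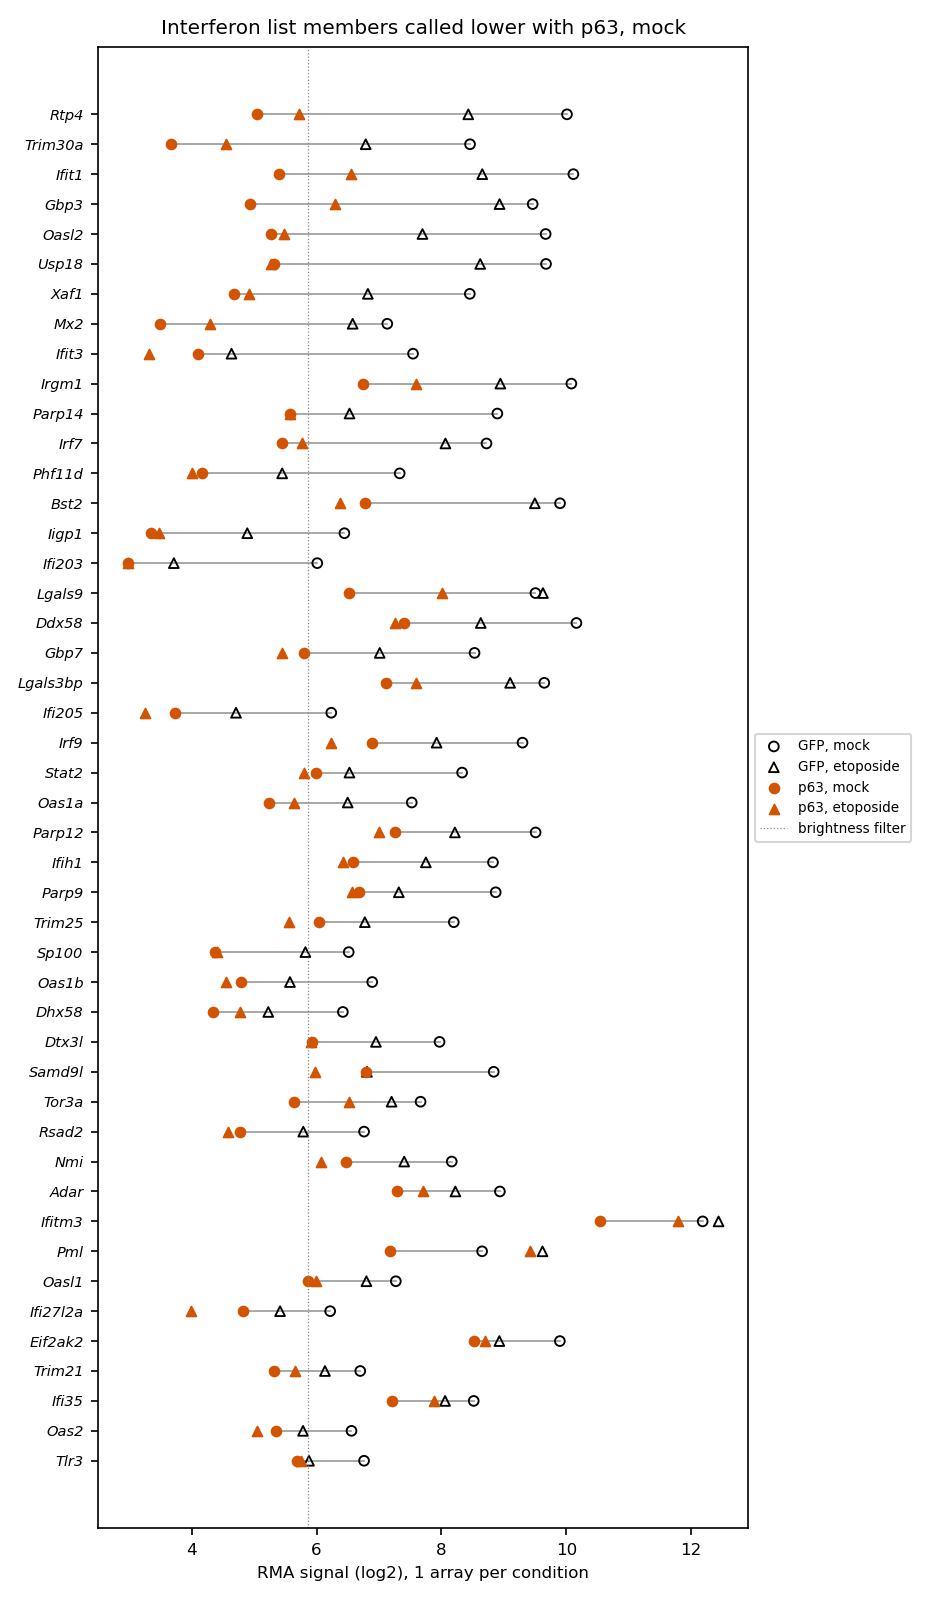
RMA signal (log2, horizontal axis) of the 46 called members of the interferon lists on each of the 4 arrays, ordered by their mock difference, with symbols as in the epithelial plot. The mock p63 reading lies to the left of both GFP readings for all 46 genes. The etoposide GFP reading lies below the mock GFP reading for 43 of them, so the distance between the lines is shorter among the triangles.

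The GFP readings of the interferon genes also differed between the mock and etoposide arrays. For the 46 called genes the median reading was 8.49 in mock GFP cells, 6.98 in etoposide GFP cells, 5.60 in mock p63 cells and 5.76 in etoposide p63 cells. The etoposide GFP reading was below the mock GFP reading for 43 of the 46; the p63 medians were close to each other. With 1 array in each condition the spread of these readings between cultures is unknown.

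Antigen presentation and chemokine genes, many of them also inducible by interferon, were lower in part. Of 17 MHC class I pathway genes kept 6 were called lower, beside 3.76% of all genes, and 1 higher, with a median of -0.77. B2m, the light chain of all class I molecules, read 12.76 and 12.89 with GFP and 11.11 and 11.98 with p63, 3.15-fold lower in mock cells. The class I gene H2-Q4, a member of a family of near-identical copies, was 5.12-fold lower. The peptide transporter gene Tap1 differed by -1.61 in the mock pair and by -0.03 in the etoposide pair, the immunoproteasome gene Psmb8 by -1.61 and -1.08, Tapbp by -1.25 and -0.47, and Erap1 by -1.17 and -0.55. The exception was Nlrc5, a transactivator of class I genes, at 1.19 and -0.32. With the median of its probe sets in place of the brightest 1 it differed by -0.34 in the mock pair, so its probe sets disagree and its direction is not settled.

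Among chemokine, cytokine and NF-kB genes 9 of 25 kept were called lower and none higher in the mock pair, beside 3.76% lower among all genes, and 1 in the etoposide pair. Cxcl10, a chemokine that draws T cells, read 10.43 and 10.98 with GFP and 7.05 and 10.15 with p63, 10.4-fold lower in mock cells, with a difference of -0.83 under etoposide. Ccl5 read 8.87 and 9.26 with GFP and 6.10 and 7.13 with p63, 6.80-fold lower and the 1 gene called in both. Ccl2, Cxcl12, Csf1 and Vcam1 differed by -1.68, -1.27, -1.26 and -1.22 in the mock pair, and Ccl2, Cxcl12 and Vcam1 by -0.61, -0.65 and -0.19 in the etoposide pair. Csf1 was nearly equal in the etoposide pair (0.05), and the mock p63 array stood apart for it. Myd88, the adaptor of Toll-like receptors picked after its values were seen, differed by -1.23.

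**Figure D4:**
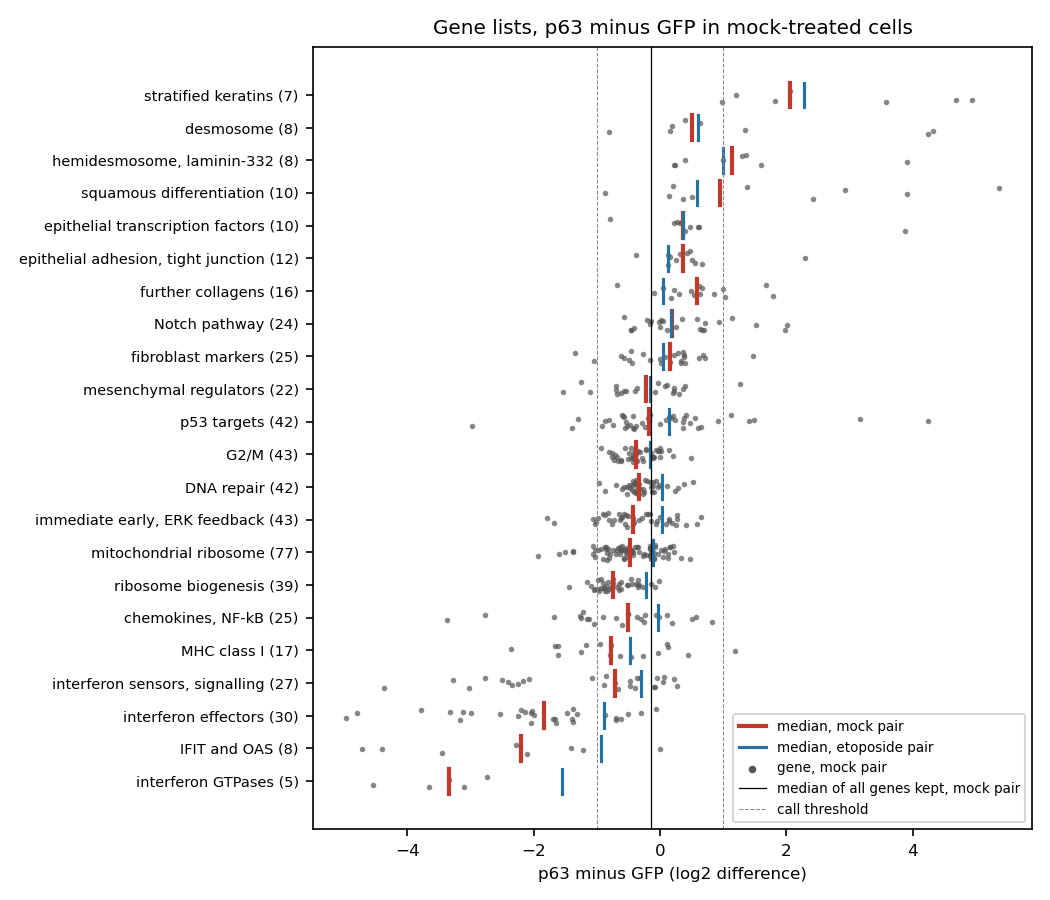
p63 minus GFP differences (log2, horizontal axis) of the members kept of 22 gene lists in mock-treated cells. Grey points are genes, red bars the list medians in the mock pair, blue bars the list medians in the etoposide pair, the black line the median of all genes kept (-0.14) and dashed lines the call threshold of 1. Stratified keratins (7 genes kept) have the highest median (2.05) and interferon GTPases (5 genes kept) the lowest (-3.34). With dim readings raised to the filter these mock medians are 1.01 and -2.66. Without a filter they are 0.99 and -1.79, and the IFIT and OAS list then lies below the GTPases. The ribosome biogenesis bar lies at -0.75 in the mock pair and -0.22 in the etoposide pair.

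The regulator Myc and 5 ribosome biogenesis genes were called lower in the mock pair alone. Myc, the transcription factor that drives ribosome production, read 10.83 and 10.09 with GFP and 9.03 and 10.03 with p63. The mock p63 reading was the lowest of the 4, a 3.47-fold difference in the mock pair beside -0.06 in the etoposide pair. All 39 ribosome biogenesis genes kept had mock differences below 0, from -1.43 to -0.02, with a median of -0.75, beside 6834 below 0 among all 10698. Noc4l (-1.43), the polymerase I subunit Polr1a (-1.16), Nolc1 (-1.09), Mybbp1a (-1.04) and Heatr1 (-1.02) were called, 5 of 39 beside 3.76% of all genes. None was called in the etoposide pair, where the median was -0.22. After centring, loess and quantile scaling the mock median was -0.53, -0.52 and -0.55. Polr1a, Nolc1, Mybbp1a and Heatr1 fell short of 2-fold under every one of these scalings. The mock p63 array gave the lowest of the 4 readings for 25 of the 39 genes. The part of this array's offset in the result was not tested.

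Further lists of RNA and ribosome proteins, added after values were seen, also held lower calls. Of 77 mitochondrial ribosome genes 9 were called lower and none higher, beside 3.76% lower among all genes, with a median of -0.48 in the mock and -0.12 in the etoposide pair. Of 32 RNA exosome and splicing snRNP genes 11 were called lower, with a median of -0.57, beside none called and -0.22 under etoposide. Snrpg, a core protein of the spliceosomal snRNPs, read 9.70 and 10.06 with GFP and 6.60 and 9.86 with p63. Its mock p63 reading stood apart from 3 readings that lay within 0.5 of one another. With the median of its probe sets the mock difference was -1.85 in place of -3.10. The spermidine synthase gene Srm, picked after its values were seen, differed by -1.20 in the mock and -0.47 in the etoposide pair.

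Few cell cycle genes were called. Of 24 genes of G1 cyclins and CDK inhibitors 1 was called higher, Cdkn1c, and 2 lower, beside 2.42% and 3.76% of all genes. Their median was -0.12, near the -0.14 of all genes. Ccnd1, which encodes cyclin D1, read 8.97 and 9.74 with GFP and 5.99 and 8.30 with p63, 7.90-fold lower in mock cells, with a difference of -1.44 under etoposide. Its partner kinase Cdk6 read 9.04 with GFP and 7.09 with p63 in mock cells, 3.85-fold lower, and the etoposide pair differed by -0.51. Of 43 G2/M genes kept none was called, 37 lay below 0 and the median was -0.37. Of 41 S phase genes 38 lay below 0, with a median of -0.29, and 2 were called lower, near the 3.76% of all genes, the replication licensing factors Cdt1 (-1.44) and Mcm10 (-1.21), for both of which the mock p63 array stood apart. Of 42 DNA repair genes none was called, with a median of -0.34, and of 14 replication histone genes 1 was, H1f1 (-1.13). In the etoposide pair these 4 lists held no called gene.

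Immediate early genes and feedback regulators of the ERK pathway, which follow growth factor signalling within minutes, held 5 calls. Of 43 kept 5 were called lower and none higher, beside 3.76% lower among all genes, with a median of -0.43, beside 0.04 in the etoposide pair. Besides Myc these were Fosl1 (-1.67), Btg1 (-1.06), Dusp6 (-1.03) and Dusp1 (-1.01). With arrays centred Btg1, Dusp6 and Dusp1 were at -0.85, -0.82 and -0.80, which leaves 2 of the 5 calls. Dusp6, an ERK phosphatase, read 7.89 and 9.36 with GFP and 6.86 and 9.82 with p63, so its difference was 0.46 in the other direction under etoposide. The metallothionein genes Mt1 and Mt2, close copies picked after their values were seen, differed by -1.27 and -2.32 in the mock pair and by -0.24 and -0.50 in the etoposide pair.

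Genes listed as p53 targets held calls in both directions. Of 42 kept 5 were called higher, beside 2.42% of all genes, and 3 lower, beside 3.76%. Their median was -0.17 and lay between 0.00 and 0.04 under the other scalings. Higher were Perp and Igfbp3, described above, and Phlda3, a repressor of AKT (8.63 with GFP and 10.12 with p63). The carboxylesterase genes Ces2e (1.13) and Ces2g (1.41, or 0.26 with the dim reading raised), neighbours of similar sequence, were also higher. Lower were Ccnd1, Epha2 (-1.39) and Plk3 (-1.29, or -0.77 with the dim reading raised). Mdm2, the target that feeds back on p53, read 9.99 and 12.39 with GFP and 9.71 and 12.29 with p63, a difference of -0.28 in the mock pair. Phlda3 differed by 0.17 under etoposide, where both lines read above 10.

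Survival and stress lists showed few calls. Among all genes 2.42% were called higher and 3.76% lower. Of 15 BCL-2 family genes kept 1 was called lower, Bid (-1.09), beside 0.14 in the etoposide pair. Of 28 genes of death receptors, caspases and necroptosis Ripk4, a kinase required for epidermal differentiation, was called higher from readings below the filter, and Tnfrsf1b, a TNF receptor, lower at -1.53. Of 35 genes of the unfolded protein and ATF4 responses Vldlr was higher by 1.01, and the arginine transporter gene Slc7a3 (-1.52), Shmt2 of mitochondrial folate metabolism (-1.30) and Ern1 (-1.02) were lower. Of 17 heat shock genes Hspa4l was higher, by 1.25 and 1.40 in the mock and etoposide pairs. Neither the 30 glutathione and redox genes nor the 20 cholesterol synthesis genes held a called gene in the mock pair. In the latter the median was 0.29, and Hmgcs1 and Sqle, at 0.85 and 0.73, were called in the etoposide pair alone. Of 29 hypoxia and glycolysis genes the glucose transporter Slc2a1 was higher by 1.18, and of 37 autophagy and lysosome genes Ctsa (-1.10) and Npc2 (-1.09) were lower. The sign of the median depended on the scaling for 13 of the 53 lists, whose deposited medians lay between -0.22 and -0.01, among them p53 targets, mesenchymal regulators and heat shock.

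Small RNA genes stood out among the genes higher in the mock pair alone. The Y RNA genes, picked after their values were seen, encode short polymerase III transcripts. Rny1 read 6.40 and 5.73 with GFP and 9.70 and 6.07 with p63, and Rny3 10.62 and 10.69 with GFP and 12.72 and 10.19 with p63. In each case the mock p63 reading was by far the highest of the 4. Of 50 snoRNA and scaRNA genes kept 10 were called higher and none lower, beside 2.42% higher among all genes, with Snord35a at 2.91. Of 73 microRNA genes kept 7 were called higher, with Mir199a-1 at 2.11, and of 13 other small RNAs 4. None of these 3 lists had a called higher gene in the etoposide pair. Small RNA genes also made up 8 of the 20 genes for which the mock p63 array stood apart upwards. These probe sets hybridise to amplified total RNA, and a reading of a microRNA gene does not separate the mature form from its precursor or host transcript.

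The calls of the mock and etoposide pairs overlapped in part, and the share depends on the pair it is counted in. Of the 259 genes called higher in mock cells 99 (38.2%) were also called higher under etoposide, beside 1.38% of all genes, and 27 (10.4%) differed there by less than 0.25. Of the 402 called lower 52 (12.9%) were also called, beside 0.514%, and 167 (41.5%) differed by less than 0.25. Counted from the etoposide pair, the shared genes were 66.9% of its 148 higher and 94.5% of its 55 lower genes. The median etoposide difference was 0.78 for the higher and -0.28 for the lower genes, against 1.30 and -1.21 in the mock pair. Of the 15 higher by at least 3, 13 were called in both pairs, and of the 19 lower by at least 3, 15 were.

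The epithelial lists held 17 of the 99 genes higher in both pairs (17.2%), and the interferon lists 29 of the 52 genes lower in both (55.8%). Of the 167 lower genes that were less than 0.25 apart under etoposide, 4 (2.40%) were on the interferon lists and 9 (5.39%) on the ribosome biogenesis, mitochondrial ribosome and RNA processing lists. Those last lists held 25 of the 402 lower genes, 6.22% beside 1.38% of all genes kept, and none of the 52 lower in both. Genes lower in the mock pair alone were Myc, Snrpg, Tap1 and, among others, S1pr1, a receptor for sphingosine 1-phosphate, whose readings were 8.24 and 6.36 with GFP and 6.46 and 6.17 with p63. There the mock GFP reading, not the mock p63 reading, was the one away from the others. Higher in the mock pair alone were Ndufs6 (1.31) of mitochondrial complex I, Tns1, a focal adhesion gene at 2.31 but at 0.27 with the median of its probe sets, and Usp17ld (4.13), a member of a family of near-identical deubiquitinase copies whose readings were 7.63, 8.02 and 8.37 on the other arrays and 11.76 on the mock p63 array.

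**Figure D5:**
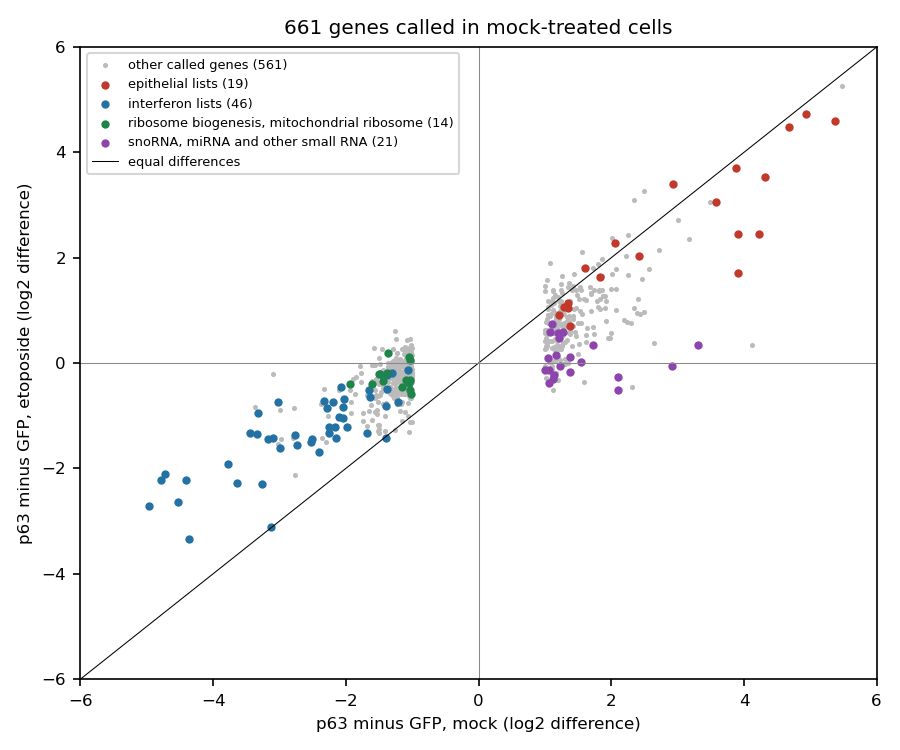
p63 minus GFP difference (log2) of the 661 genes called in mock-treated cells, in the mock pair (horizontal axis) and in the etoposide pair (vertical axis), which share no array. Points are genes, coloured by list, and the diagonal marks equal differences. Some epithelial genes lie near the diagonal (Krt14, 4.94 and 4.72) and some well below it (Itga6, 3.90 and 1.71). Interferon genes lie mostly between it and the horizontal line. None of the 14 ribosome genes was called under etoposide, where the 5 ribosome biogenesis genes among them lay between -0.58 and -0.33. None of the 21 small RNA genes was called higher under etoposide.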

How the data were processed

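The deposited values are log2 signals. Per the submitters' processing notes the authors used RMA and the Affymetrix Expression Console, of unstated version. Per the labels' protocols, Trizol RNA was amplified with a NuGEN whole-transcriptome kit for small inputs. RMA equalises the probe intensity distributions of arrays, so shifts shared by most genes are largely removed, and amplification from little RNA can add variation between arrays. Depth does not apply, and the number of arrays, 1 per group, limits the precision.

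Of 35512 probe sets, a platform annotation of 2016 named 1 gene for 21789 and several for 1621, and 12102 were absent from it. Entrez identifiers of 21698 matched a RefSeq table (GRCm38.p6). Each gene was represented by its probe set of highest mean. A gene was kept where its highest reading reached the 50th percentile, 5.87. Differences were computed with pandas 2.3.3, and loess and quantile scaling with limma 3.58.1 in R 4.3.3. No test was made.

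The rule for naming took Trp63, Trp73 and Bak1 (Bax and Trp53 are not used here); the 12 highest and 12 lowest differences with both readings above the filter; the 8 highest and 8 lowest with 1 reading raised to it; up to 6 called members per list and direction, or the 2 largest where none was called; and the 6 highest and 6 lowest genes where the mock p63 array stood apart or only the mock pair differed. Clone names, receptor families and small RNAs were counted, not ranked. Other genes were picked after their values were seen. The members, the 48 lists and the 5 lists added later were chosen with earlier results of these data known. The alternatives were 3 filters, 2 thresholds, the median of probe sets, 3 scalings of the arrays and raised dim readings.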

Additional observations from a re-analysis of the deposited data

Results flagged for a closer look

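For 7 named genes called in the mock pair, the etoposide pair differed by at least 0.25 in the opposite direction. Each pair is of 1 p63 and 1 GFP array. Smaller opposite differences are not counted here. The difference between the pairs was not tested. Tns1 differed by 2.31 in the mock and -0.45 in the etoposide pair, Myo18b by 1.59 and -0.36, Krt8 by 1.01 and -0.28, Nlrc5 by 1.19 and -0.32, and Rny3 by 2.10 and -0.51. Lower in the mock pair and higher in the etoposide pair were Ccn2, at -1.26 and 0.61, and Dusp6, at -1.03 and 0.46. With the median of probe sets the mock differences of Tns1, Myo18b and Nlrc5 were 0.27, 0.49 and -0.34.

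Probe sets outside the gene-level comparison also held differences. Of 5911 probe sets that have no single gene symbol and reach the filter, 498 (8.42%) were higher with p63 in the mock pair and 359 (6.07%) lower, against 221 and 52 in the etoposide pair.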

How the results depend on the processing

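No paired analysis was possible because each group has 1 array, and leaving out an array ends the comparison. The count of genes higher, 259, was 145 with the filter at the 75th percentile, 721 at a 1.5-fold and 46 at a 4-fold threshold, and 408 with arrays centred. The count lower, 402, was 262, 1720, 48 and 202 under the same settings, 239 with cyclic loess and 256 with quantile normalization. Of the lower genes, 202, 233 and 246 were shared with the deposited scale under centring, loess and quantile scaling. The 19 epithelial members became 11 with the stricter filter and 12 at 4-fold, and the 46 interferon members 29 with the stricter filter; the other alternatives kept both counts within 1.5 times. The heat shock median, -0.11, was 0.10 with arrays centred and 0.12 with loess, and that of haematopoietic markers, -0.86 from 1 gene kept, was 0.22 without a filter. With the median of probe sets Nlrc5 was -0.34 and Carhsp1 -0.08, and the calls of Tns1 (0.27), Myo18b (0.49) and Irs1 (-0.59) were lost, and Snrpg moved from -3.10 to -1.85. Of 171 named genes called, 148 were called under every scaling. The cause of these moves was not tested, except that filters and thresholds change which genes can be called.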
